A study of Homo sapiens with 45 samples.

Results

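The genes described here set the restriction point of the cell cycle: the D cyclins CCND1, CCND2 and CCND3, their kinases CDK4 and CDK6, the INK4 inhibitors CDKN2A, CDKN2B and CDKN2C, and the pocket proteins RB1 and RBL1. They were taken as a named list of 10 genes out of 41582 genes in the tables, and estimated counts and TPM (a level per 1000000 transcripts, corrected for transcript length and library size) were summed over all transcripts of each symbol. All 10 were found, with between 1 (CCND1, CCND2, CDK4, RB1) and 10 (CDKN2A) transcripts each.

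The samples were 45 poly(A) RNA libraries from human tumour cell lines, 3 for each of 15 groups. Ewing sarcoma, which carries a fusion of EWSR1 with an ETS gene such as FLI1, was represented by 7 untreated lines, TC71, SKES1, RDES, MHHES1, EW24, EW3 and A673. Osteosarcoma, a bone tumour without that fusion, was represented by 6 untreated lines, U2OS, SAOS2, MG63, KHOS, HOS-MNNG and G292. The remaining 6 were made from A673 cells with the inducible hairpin sh908, labelled as aimed at the potassium channel gene KCNN1. Of these, 3 received doxycycline, the inducer, and 3 did not. The labels give neither dose nor time for doxycycline, do not say whether the sh908 cells are 1 clone, and include no hairpin against an unrelated sequence. HOS-MNNG and KHOS are both known as derivatives of one parental line, so they are not independent tumours. Nothing in the labels says that the 3 libraries of a group came from separate cultures, so p-values within A673 measure only the spread between libraries.

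Cyclin D bound to CDK4 or CDK6 phosphorylates RB1 and its relative RBL1 (p107), which releases E2F transcription factors and lets the cell enter S phase. The INK4 proteins p16INK4a (from CDKN2A), p15INK4b (CDKN2B) and p18INK4c (CDKN2C) bind CDK4 and CDK6 and keep them from D cyclins. CDKN2A also encodes, from a separate first exon and in another reading frame, p14ARF, which binds MDM2. In Ewing sarcoma loss of CDKN2A is a known recurrent event, and in osteosarcoma RB1 and CDKN2A losses and gains of CDK4 are known.

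NKX2-2, STEAP1, PRKCB, CCK, CD99 and FLI1 were at or above 1 TPM in 7 of 7 Ewing sarcoma lines and NR0B1 in 5. STEAP1 and CD99 also passed 1 TPM in all 6 osteosarcoma lines, FLI1 in 4, NKX2-2 in 2 and NR0B1 in 1. ERG did so in 1 Ewing sarcoma and 4 osteosarcoma lines. Of the osteoblast markers, COL1A1 and SPARC reached 1 TPM in 6 of 6 osteosarcoma lines and in 7 of 7 Ewing sarcoma lines, and RUNX2 in 5 osteosarcoma and 4 Ewing sarcoma lines. COL1A2 did so in 4 lines of each type, SP7 in 1 osteosarcoma line and IBSP in 0. ALPL went the other way, in 7 of 7 Ewing sarcoma lines (median 36.07 TPM) and 4 of 6 osteosarcoma lines (median 4.37 TPM). PRKCB and CCK were below 1 TPM in every osteosarcoma line. Library totals ranged from 15974173 to 51413254 estimated counts. KCNN1, the target, was at 37.8, 35.3 and 17.99 TPM in the 3 uninduced sh908 libraries and at 10.2, 13.7 and 7.75 TPM with doxycycline, and at 31.97 to 38.9 TPM in parental A673. In some libraries long genes read low. Over 1631 genes longer than 6000 bases the median log2 difference from the other libraries of the line was -0.82 in TC71 replicate 3 and -0.41 in U2OS replicate 3. Against parental A673 it lay at -0.72 and -0.85 in uninduced sh908 replicates 1 and 2 and at -0.14 in replicate 3. With doxycycline the same pattern was -0.89 and -0.81 against -0.22. The CDK6 transcripts are 11654 to 11724 bases long, and those of CCND2, RB1 and CCND1 are 6493, 4768 and 4238 bases. The libraries with low long genes are named beside the values of CDK6, RB1 and RBL1, and TC71 replicate 3 beside those of CCND1 and CCND2. In TC71 and U2OS the CCND1 and CCND2 values were also lowest in replicate 3.

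CDKN2A and CDKN2B lie side by side on the short arm of chromosome 9 (GRCh38.p14), CDKN2A at chr9:21967752-21995324 and CDKN2B at chr9:22002903-22009313, both on the minus strand. The p14ARF and p16INK4a transcripts start at separate promoters. Both windows are printed, from RefSeq on GRCh38.p14, because the tables measure the transcripts of the 2 starts separately and the lines differed in how much of each they held. Each run covers 250 bases before to 50 bases after the start, 5′ to 3′ on the minus strand, with GGGCGG, the letters of the core GC box, in capitals.
CDKN2A, p14ARF start, chr9:21995275-21995574: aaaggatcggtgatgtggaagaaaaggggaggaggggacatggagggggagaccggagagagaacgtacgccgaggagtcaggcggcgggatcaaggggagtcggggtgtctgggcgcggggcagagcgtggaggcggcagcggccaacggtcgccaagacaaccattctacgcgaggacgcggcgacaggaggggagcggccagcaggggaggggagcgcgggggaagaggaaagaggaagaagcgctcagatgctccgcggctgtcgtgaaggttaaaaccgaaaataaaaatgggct
CDKN2A, p16INK4a start, chr9:21974808-21975107: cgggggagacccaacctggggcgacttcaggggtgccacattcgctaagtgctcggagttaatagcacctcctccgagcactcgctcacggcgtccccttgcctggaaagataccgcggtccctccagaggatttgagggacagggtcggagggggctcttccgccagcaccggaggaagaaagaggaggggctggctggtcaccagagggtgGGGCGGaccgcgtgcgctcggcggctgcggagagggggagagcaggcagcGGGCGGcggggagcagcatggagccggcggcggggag
The p14ARF window held 28 CpG dinucleotides and 63.3% G+C, and the p16INK4a window 26 CpG and 69.0% G+C. The median of 35116 promoter windows was 14 CpG and 58.7% G+C. GGGCGG, searched on both strands, occurred 2 times in the p16INK4a window and 0 times in the p14ARF window, and was present in 44.95% of all windows. The letters TTTGGCGC and TTTCGCGC, versions of the E2F site, and TATAAA were in neither window, which says only that these letters are not there. They occur on either strand in 0.652%, 0.515% and 11.53% of all windows.

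Across the 13 untreated lines the 10 genes differed widely in how much they varied. The highest line mean was 2.97 times the lowest for RBL1, 3.79 times for CCND3 and 3.80 times for RB1, but 22.04 times for CDK4, 511 times for CCND1 and 730 times for CDK6. CDKN2A and CDKN2B ran from no count at all to 405 and 37.4 TPM.

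**Figure D1:**
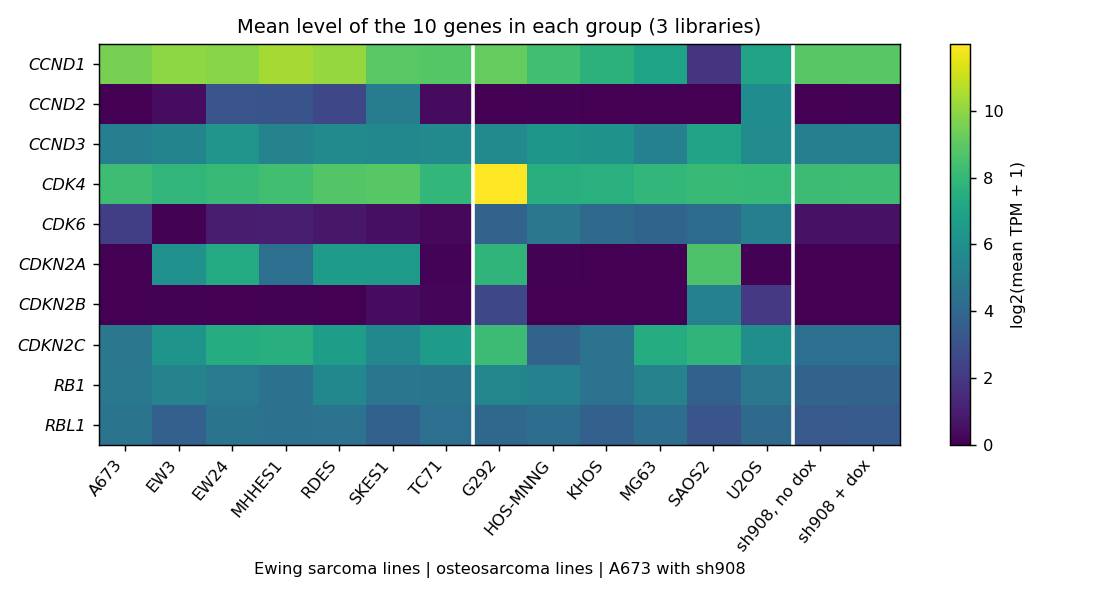
Mean level of each of the 10 genes (rows) in each of the 15 groups (columns) as log2(mean TPM + 1) of 3 libraries, with white lines between Ewing sarcoma lines, osteosarcoma lines and sh908 cells. CDK4 stands out at 4091 TPM in G292, CCND1 is low in SAOS2 at 2.58 TPM, CDK6 is low in the Ewing sarcoma lines, and CDKN2A is near 0 in 6 of the 13 lines.

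CCND1 encodes cyclin D1, the D cyclin that most solid tumours express. Its mean level was highest in MHHES1, at 1317 ± 89.4 TPM (SD, n = 3), followed by RDES at 1088 ± 11.2, EW3 at 1005 ± 43.03, EW24 at 942 ± 150 and A673 at 736 ± 52.3 TPM. These 5 Ewing sarcoma lines stood above every osteosarcoma line. The other Ewing sarcoma lines were SKES1 (482, 440 and 548 TPM) and TC71 (485, 547 and 329 TPM, the last in the library where long genes read low). Both lay below G292, which had 595, 554 and 575 TPM. HOS-MNNG followed at 326 ± 21.5 and KHOS at 209 ± 3.92 TPM. U2OS and MG63, at 127 ± 15.5 and 125 ± 12.6 TPM, overlapped in their libraries. EW3 and EW24, EW24 and A673, SKES1 and TC71, and TC71 and HOS-MNNG also overlapped, while the libraries of the remaining neighbours in this order were apart. TC71 overlapped HOS-MNNG only through its library with low long genes. SAOS2 stood far below all other lines, with 2.09, 2.53 and 3.10 TPM from 129, 156 and 182 counts.

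CCND2 encodes cyclin D2, which is used mainly by blood, germ and neural cells. It was on in 5 lines and nearly silent in the other eight. U2OS had 55.3, 59.9 and 54.4 TPM and SKES1 29.7, 37.8 and 30.6 TPM. EW24 at 8.03 ± 1.92 and MHHES1 at 7.58 ± 0.640 TPM overlapped, and RDES stood at 5.00 ± 0.818 TPM. EW3 and TC71 had 0.336 and 0.292 TPM, with the TC71 libraries at 0.387, 0.323 and 0.167 TPM, the last where long genes read low. A673 and the 5 osteosarcoma lines besides U2OS had at most 14 counts over 3 libraries, where 3 counts, the floor that a count of 0 would allow, correspond to between 0.0255 and 0.0479 counts per 1000000.

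CCND3 encodes cyclin D3 and was the most even of the D cyclins. The Ewing sarcoma lines lay between 34.1 (A673) and 74.8 TPM (EW24) and the osteosarcoma lines between 38 (MG63) and 129 TPM (SAOS2). SAOS2, with 117, 134 and 137 TPM, was apart from all other lines. From U2OS at 55.1 TPM down to A673 every line overlapped the next in the order, although the ends of that run were apart, with 53.5 to 58.02 TPM in U2OS and 32.1 to 37.3 TPM in A673.

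Because TPM is corrected for length, the D cyclins can be set against each other within a line. Cyclin D1 made up 85.9% (SKES1) to 96.5% (MHHES1) of the summed D cyclin level in the Ewing sarcoma lines. In TC71 it was 89.3 ± 3.08%, and the part of its library with low long genes in this share was not tested. The share was 91.6 ± 0.745% in G292 and between 75.2% and 80.2% in KHOS, MG63 and HOS-MNNG. U2OS mixed all 3, with 53.2% CCND1, 23.7% CCND2 and 23.1% CCND3. In SAOS2 the balance was turned over: 98.1 ± 0.236% of the D cyclin level was CCND3. The summed level in SAOS2, 131.6 ± 11.46 TPM, was the lowest of the 13 lines, against 1365 ± 85.9 TPM in MHHES1.

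**Figure D2:**
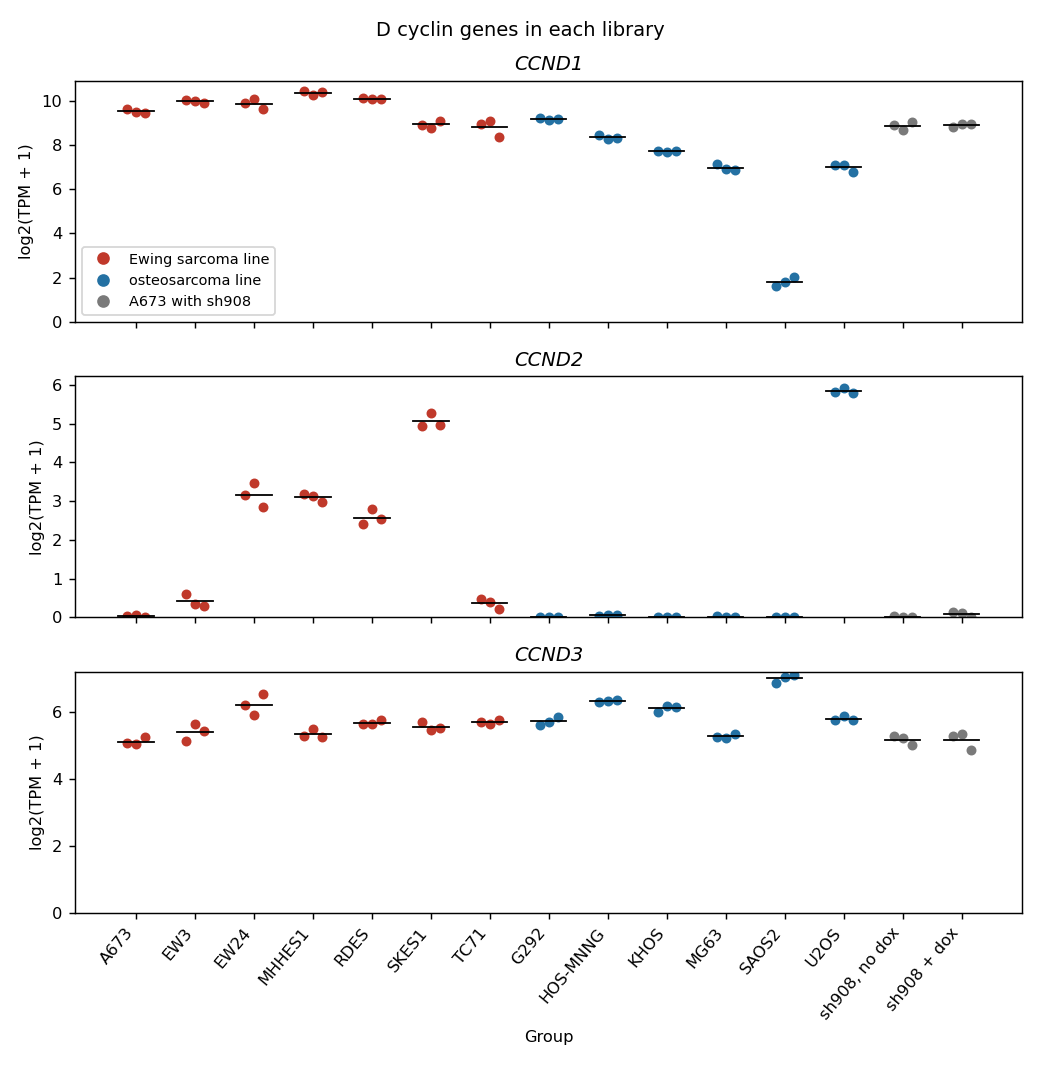
CCND1, CCND2 and CCND3 in every library (points) as log2(TPM + 1) by group, with bars at the mean of the 3 log values. SAOS2 is the lowest line for CCND1 and the highest for CCND3, U2OS and SKES1 are highest for CCND2, and the sh908 groups lie below parental A673 for CCND1.

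CDK4 is the kinase partner of the D cyclins in most solid tissues. In 12 of the 13 lines it lay between 186 ± 8.43 TPM (HOS-MNNG) and 466.4 ± 11.7 TPM (SKES1). G292 had 3879, 4107 and 4289 TPM, which was 15.4 times the median of the other lines and came from 148227, 160617 and 104319 counts. In the order of the other lines RDES (439 TPM) and MHHES1, MHHES1 and A673, U2OS and MG63, and EW3 and KHOS were apart. The remaining neighbours overlapped, among them SKES1 with RDES, A673 with EW24, and HOS-MNNG with KHOS.

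The genes around CDK4 on chromosome 12 were also high in G292. CDK4 spans chr12:57747727-57752310. OS9, which lies 26.2 kb away and encodes a lectin of endoplasmic reticulum quality control, had 1054 TPM in G292, 10.5 times the median of the other 12 lines. AGAP2, a GTPase activating protein 5.57 kb away, had 33.6 TPM, 46.0 times that median. METTL1, an RNA methyltransferase, was 4.38 times, EEF1AKMT3 4.15 times, MARCHF9 3.23 times and TSFM, a mitochondrial elongation factor, 2.96 times the median. All 7 listed neighbours were higher in G292 than in any other line. TSPAN31, at 137 TPM and 10.2 times the median, overlaps CDK4 in the genome, and the strand setting of the quantification is not given in the sources used here, so reads in the shared stretch cannot be told apart. The number of copies of the region was not measured.

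CDK6, the second D cyclin kinase, lies at chr7:92604921-92836573. It was low in the Ewing sarcoma lines and expressed in all osteosarcoma lines. U2OS had 41.5, 41.5 and 24.3 TPM, the last from the library in which long genes read low. HOS-MNNG had 25.01, 25.4 and 26.8 TPM, SAOS2 15.5, 19.2 and 19.2, KHOS 17.3, 18.3 and 14.7, MG63 15, 12.7 and 12.4, and G292 11.9, 13.3 and 13.7 TPM. Among Ewing sarcoma lines A673 was highest, with 3.23, 4.26 and 3.53 TPM. MHHES1, EW24, RDES and SKES1 followed, with means from 1.02 down to 0.429 TPM, each overlapping the next. TC71 had 0.204, 0.241 and 0.0870 TPM, the last in replicate 3, where long genes read low, and EW3 had 0.0736, 0.0492 and 0.0243 TPM from 18.1, 8 and 4 counts. The 2 tumour types did not overlap.

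As a share of the summed level of both kinases, CDK6 was at most 1.17% in the Ewing sarcoma lines. In the osteosarcoma lines other than G292 it ranged from 5.17% (MG63) to 12.2% (HOS-MNNG). In G292, where CDK4 was so high, it was 0.316%.

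**Figure D3:**
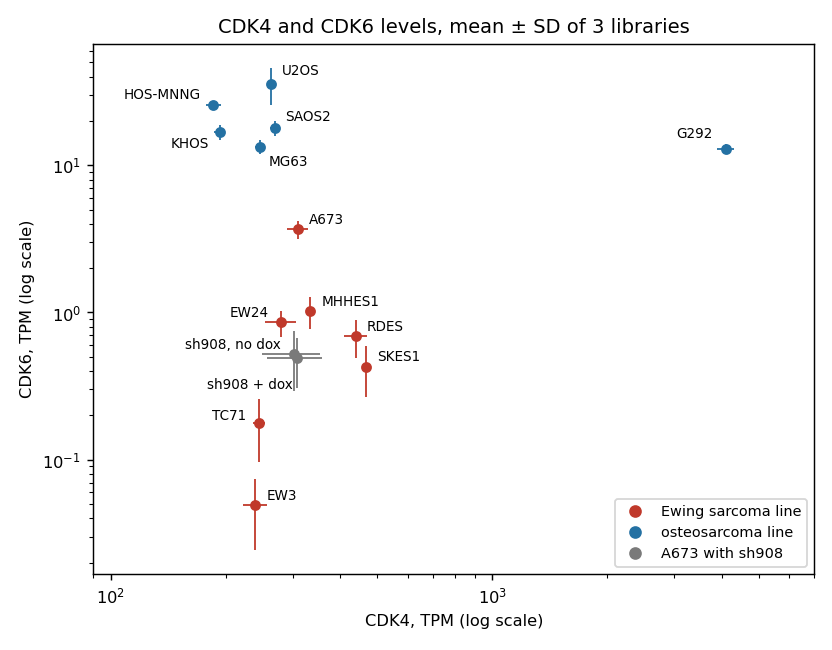
CDK4 (horizontal) against CDK6 (vertical) in TPM on log axes, mean of 3 libraries with bars of 1 SD, by line and sh908 group. Every osteosarcoma line lies above every Ewing sarcoma line for CDK6, and G292 lies alone at 4091 TPM of CDK4.

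CDKN2A was expressed in some lines of each tumour type and near 0 in others. In bulk RNA, fewer expressing cells and less RNA per cell cannot be told apart, here and for every level given. It was expressed in 5 Ewing sarcoma lines, EW24 at 162 ± 7.68, RDES at 94.9 ± 4.69, SKES1 at 92.4 ± 4.18, EW3 at 65.7 ± 3.18 and MHHES1 at 19.8 ± 1.63 TPM. Among osteosarcoma lines it was expressed in SAOS2, with 439, 391 and 386 TPM, and in G292, with 254, 231 and 208 TPM. RDES and SKES1 overlapped and all other neighbours among these lines were apart. In A673, KHOS and MG63 all 3 libraries held 0 counts of CDKN2A, which allows up to 0.0317, 0.0306 and 0.0479 counts per 1000000. TC71 had 4 counts, HOS-MNNG 3 and U2OS 2 over 3 libraries. The 6 sh908 libraries, which derive from A673, also held 0 counts.

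The transcript that encodes p14ARF was the larger part of CDKN2A in each of the 7 expressing lines. It made up 84.3 ± 1.63% of CDKN2A TPM in EW3, 78.8 ± 1.03% in SAOS2, 75.2 ± 2.12% in RDES, 67.9 ± 0.999% in EW24, 61.9 ± 1.22% in MHHES1, 58.8 ± 1.17% in G292 and 54.3 ± 3.04% in SKES1. The p16INK4a transcript, from the promoter window with the GC boxes, made up 42.4 ± 4.19% in SKES1 and 37.4 ± 1.33% in G292, but 7.46% in EW3. In level, p14ARF exceeded p16INK4a by 1.28 times in SKES1 and 1.58 times in G292, and by 11.3 times in EW3. EW3 held 55.0, 59.1 and 52.0 TPM of p14ARF against 6.19, 3.99 and 4.48 TPM of p16INK4a. In MHHES1 p16INK4a was listed at 3.50 TPM in 2 libraries and at 0 in the third, so its share there is uncertain. Both transcripts share their later exons, so their split rests on the reads that touch the first exons.

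**Figure D4:**
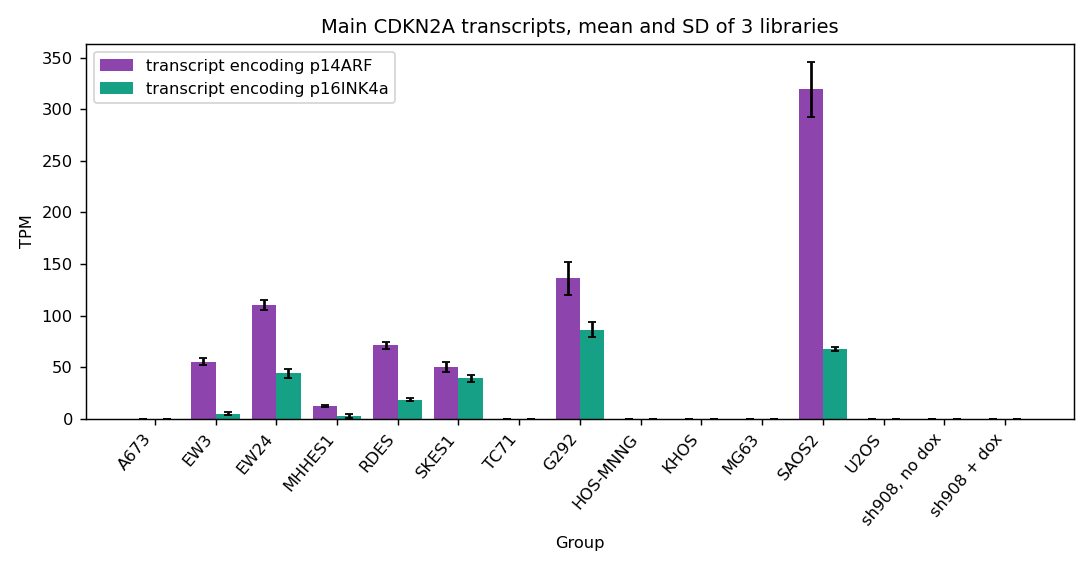
Levels of the CDKN2A transcripts encoding p14ARF and p16INK4a in TPM, mean of 3 libraries with bars of 1 SD, by group. The p14ARF bar is the taller in all 7 lines that express CDKN2A, from 12.2 TPM in MHHES1 to 319 TPM in SAOS2, and both transcripts are at or near 0 in the remaining groups.

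CDKN2B was expressed only in osteosarcoma lines, if 1 TPM is taken as the limit. SAOS2 had 35.8, 39.03 and 37.2 TPM, G292 6.06, 4.602 and 4.57 TPM and U2OS 3.38, 3.05 and 2.43 TPM. SKES1 and TC71 had 0.309 and 0.165 TPM. The other five Ewing sarcoma lines had 1 to 9 counts over 3 libraries, HOS-MNNG had 2, and KHOS and MG63 had 0. U2OS thus held CDKN2B with almost no CDKN2A, while EW24, RDES, SKES1, EW3 and MHHES1 held CDKN2A with almost no CDKN2B. CDKN2A and CDKN2B share 70 stretches of 31 bases, the k-mer length of kallisto by default, out of 4474 and 4051, and no other pair of the 10 genes shares any.

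MTAP, the methylthioadenosine phosphorylase gene 26.6 kb from CDKN2A, was at 0.217 TPM in HOS-MNNG and 0.139 TPM in KHOS, and between 18.6 and 51.9 TPM in the other 11 lines. A673, MG63, U2OS and TC71, which also had at most 4 counts of CDKN2A, had 39.96, 46.7, 29.7 and 18.6 TPM of MTAP. DMRTA1, a transcription factor gene on the far side of CDKN2B, was at 2.28 TPM in HOS-MNNG and 2.33 TPM in KHOS, and FOCAD, 972 kb away, at 16.3 and 18.96 TPM. CDKN2B-AS1, the antisense RNA gene that overlaps CDKN2A and CDKN2B, so that reads in the shared stretches cannot be told apart without strand, was highest in SAOS2 at 6.85 TPM and below 0.3 TPM in A673, MG63, U2OS, HOS-MNNG and KHOS. MG63 stood apart on the other side: KLHL9, an adaptor of a ubiquitin ligase, had 180 TPM against 5.49 to 26.7 TPM elsewhere, and HACD4, a fatty acid dehydratase, 35.5 TPM against at most 2.88 TPM elsewhere. KLHL9 and HACD4 in MG63 were singled out after their values were seen. Of the 6 neighbours tested by tumour type, DMRTA1 alone passed, at 0.0804 ± 0.0864 TPM in Ewing sarcoma and 1.61 ± 0.973 TPM in osteosarcoma lines (log2 difference -4.50, SE 1.24, edgeR adjusted p = 0.0281). Over all genes 14.4% passed in that comparison, so 1 of 6 is near the background. Genome copies were not measured, so a deleted gene and a silent gene cannot be told apart from these levels.

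CDKN2C was expressed in every line. G292 had the highest level, 294 ± 11.2 TPM, followed by SAOS2 at 229 ± 5.84 and MHHES1 at 184 ± 9.47 TPM. MG63 at 169 and EW24 at 169 TPM overlapped each other. The lowest levels were in A673 at 26.1 ± 0.289, KHOS at 22.5 ± 2.03 and HOS-MNNG at 13.2 ± 1.92 TPM, all apart from their neighbours. A673, KHOS and HOS-MNNG were thus lowest for CDKN2C and near 0 for CDKN2A and CDKN2B, whereas G292 and SAOS2 were the 2 highest lines for all 3 INK4 genes.

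RB1 lies at chr13:48303751-48481890 and encodes the retinoblastoma protein. Its line means ranged from 12.4 ± 0.544 TPM in SAOS2 to 47.1 ± 7.90 TPM in RDES. From RDES to HOS-MNNG (37.2 TPM) and from EW24 (28.6 TPM) to MHHES1 (21.4 TPM) each line overlapped the next. SAOS2, with 11.97, 13.02 and 12.25 TPM, was below every library of the other untreated lines except TC71 replicate 3. Of the 7 genes listed around RB1, ITM2B, 33.4 kb away, was 4.597 times the median of the other lines in SAOS2, at 87.1 TPM, and MED4, SUCLA2 and RCBTB2 were 0.862, 0.988 and 0.898 times theirs. The TC71 libraries disagreed: RB1 was at 30.9, 33.9 and 8.17 TPM, the last in the library with low long genes. U2OS had 30.7, 28.5 and 18.9 TPM, the last also in such a library.

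RBL1, at chr20:36996349-37095997, encodes p107. Line means ran from 8.03 ± 0.560 TPM in SAOS2 to 23.8 ± 3.25 TPM in EW24. The SAOS2 libraries, at 7.97, 7.498 and 8.61 TPM, lay below those of the other untreated lines except TC71 replicate 3, and from EW24 to KHOS (11.6 TPM) every line overlapped the next. TC71 again split, with 24.4, 27.3 and 7.80 TPM, and U2OS had 18.8, 18.5 and 12.05 TPM, in both lines with the low value in replicate 3. By line mean SAOS2 therefore had the lowest level of CCND1, RB1 and RBL1 and the highest of CCND3, CDKN2A and CDKN2B among the 13 lines.

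The comparison of the 7 Ewing sarcoma lines with the 6 osteosarcoma lines asks which of these genes differ by tumour type. With libraries summed per line and edgeR's quasi-likelihood test over 22000 genes, 14.4% of genes passed a Benjamini-Hochberg adjusted p under 0.05, and 2 of the 10 genes did, CDK6 and CDKN2B. Both were lower in Ewing sarcoma, the direction of 8.4% of genes. The 10 genes had a median log2 difference of -0.53, against -0.06 over all genes tested.

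CDK6 averaged 0.985 ± 1.24 TPM over the Ewing sarcoma lines and 20.4 ± 8.81 TPM over the osteosarcoma lines. The log2 difference was -4.39 (SE 0.81), or 20.9-fold lower, with an adjusted p of 0.00377 by edgeR. All 7 Ewing sarcoma lines lay below all 6 osteosarcoma lines, as did 2.39% of the genes tested. An exact two-sided permutation of the lines gave p = 0.000583, the smallest that 1716 splits allow, and 0.0158 adjusted over all genes. CDK6 stayed below the threshold whichever line was left out, at differences from -5.40 to -4.17.

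CDKN2B averaged 0.0874 ± 0.112 TPM in Ewing sarcoma and 7.56 ± 14.7 TPM in osteosarcoma lines. The edgeR difference was -6.29 (SE 1.98) with an adjusted p of 0.0494, and it rested on SAOS2, G292 and U2OS, since the 3 remaining osteosarcoma lines had 0 to 2 counts. The adjusted p was 0.000324 by DESeq2, 0.185 with limma on log2(TPM + 1), where 11.9% of genes passed, 0.278 without G292 and SAOS2 and 0.0506 without TC71 replicate 3. Of 17 fits that left out 1 line or replicate number, the gene could be fitted in 11. There the adjusted p ranged from 0.0331 to 0.124, and the call was lost in 8 of the 11.

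The other 8 genes did not pass by edgeR, which does not show that they were equal. CCND3 (log2 difference -0.66, SE 0.28, adjusted p = 0.134) was lower in Ewing sarcoma, with the line means of SAOS2 and HOS-MNNG above those of all Ewing sarcoma lines, although the libraries of HOS-MNNG overlapped those of EW24. CCND1 was higher by 1.71 (SE 0.73, adjusted p = 0.134), and passed by DESeq2 (adjusted p = 0.0376, where 25.1% of genes passed), by the exact permutation (0.0256, with 11.7% passing) and by edgeR without SAOS2 (0.0351). CDK4 stood at -1.52 (SE 0.73, adjusted p = 0.181), but at 0.39 with G292 left out (adjusted p = 0.207). CCND2 stood at -0.13 (SE 1.99) with all lines and at 8.96 without U2OS, the only osteosarcoma line above 1 TPM, so that this value is set by the line left out. CDKN2A stood at -0.84 (SE 1.996). CDKN2C stood at -0.39 (SE 0.61), RB1 at -0.15 (SE 0.29) and RBL1 at 0.21 (SE 0.27).

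Other genes of the same network were read from a list of 31, among them E-type cyclins, CDK2, the CIP/KIP inhibitors, E2F factors and the DREAM subunits. In the tumour type comparison 31 were tested and 5 passed, 4 higher and 1 lower in Ewing sarcoma, with a median of 0.22. Of all genes 14.4% passed, 5.96% as higher and 8.4% as lower, so the count of 5 of 31 is near the background and is no result about the list. E2F2, an activating E2F, averaged 37.5 ± 11.2 against 8.17 ± 4.54 TPM (log2 difference 2.19, adjusted p = 0.00065 by edgeR). E2F5, which works with the pocket proteins as a repressor, averaged 79.8 ± 30.7 against 10.1 ± 5.99 TPM (2.75, adjusted p = 0.00163). SKP2, the ubiquitin ligase subunit that targets p27, was higher by 1.25 (adjusted p = 0.00466), and RBBP4, a histone chaperone of the DREAM complex, by 1.13 (adjusted p = 0.00985). CDKN1A, which encodes the CIP/KIP inhibitor p21, was lower by 3.11 on the log2 scale, at 7.66 ± 4.67 against 67.9 ± 63.2 TPM (adjusted p = 0.00812). The line means of E2F2, E2F5 and SKP2 were higher without overlap, as for 3.19% of genes, and those of CDKN1A lower without overlap, as for 2.39%, while RBBP4 in SAOS2 reached the range of the Ewing sarcoma lines.

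Adding doxycycline to sh908 cells was not followed by a change past the threshold in any of the 7 genes of the list with enough counts to test. CCND2, with 3 uninduced and 18 induced counts over 3 libraries each, and CDKN2A and CDKN2B, with 0 counts, were left out. Over all 14252 genes tested by edgeR 0% passed, with 94 genes at an unadjusted p under 0.05, and DESeq2 called 2 genes (0.0141%). With the replicate number as a block, 0.51% of genes passed (80 genes) and again none of the 7. KCNN1, the target of the hairpin, did not pass without the block either (log2 difference -1.53, SE 0.52, unadjusted p = 0.0234 by edgeR). It passed with the block (-1.46, SE 0.13, adjusted p = 0.000684). The test without the block thus missed the fall of the target, and the lack of calls does not show that the 7 genes were unchanged. Their differences without the block ran from -0.12 (CDKN2C, SE 0.29) to 0.07 (CCND1, SE 0.25). CCND1 stood at 483, 406 and 521 TPM in uninduced libraries and at 452, 488 and 493.4 TPM in induced ones, and the ranges overlapped. CDK4 had 352, 305 and 248 against 338, 333 and 250 TPM, and CCND3 37.9, 36.4 and 31.8 against 37.9, 39.7 and 28.6 TPM, both overlapping. RB1 had 10.6, 8.75 and 20.4 against 8.47, 8.73 and 21.7 TPM. In both groups replicate 3 stood apart from replicates 1 and 2 for RB1 and RBL1, more than the groups differed. Of the 31 other network genes 0 passed without the block and 1 with it, CDKN1A, at 19.5 to 31.8 TPM uninduced and 30.8 to 52.4 TPM induced (log2 difference 0.72, SE 0.11, adjusted p = 0.0181 with the block).

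Uninduced sh908 cells were also set against parental A673, which shows how the engineered cells differ from their parent before the hairpin is switched on. They differ by labels in the hairpin, and how far they were grown or sequenced apart is not given, so these cannot be told apart. By edgeR 15.1% of 15778 genes passed, and 2 of the 7 genes tested, CDK6 and RBL1, both lower, the direction of 6.42% of genes. The count over all genes, 2388, rested on single libraries: it was 4, 2 and 8 without parental replicate 1, 2 or 3, and 1377, 266 and 10201 without uninduced replicate 1, 2 or 3. On the TPM scale the median of all genes itself sat -0.49, -0.55 and -0.09 (log2) from parental in the 3 uninduced libraries, so TPM falls are read against that shift.

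CDK6 fell from 3.23, 4.26 and 3.53 TPM in parental cells to 0.785, 0.384 and 0.396 TPM, with a log2 difference of -2.31 (SE 0.41, adjusted p = 0.0188 by edgeR). The groups did not overlap, as held for 38.8% of genes in that direction. The median of long genes in replicate 3 was -0.14 from parental cells, against -0.72 and -0.85 in replicates 1 and 2, and their part in the result was not tested. With uninduced replicates 1 and 2 left out, the difference was -3.19 (adjusted p = 2.12e-09, with 1 library assumed to vary like the parental ones). The libraries with doxycycline stood at 0.588, 0.602 and 0.281 TPM, beside the uninduced ones.

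RBL1 fell from 25.9, 21.6 and 22.3 TPM to 7.77, 7.62 and 12.7 TPM (-0.94, SE 0.15, adjusted p = 0.0149 by edgeR), and without replicates 1 and 2 the difference was -0.75. RB1, at 28.9, 24.7 and 25.99 against 10.6, 8.75 and 20.4 TPM, missed the threshold (-0.62, SE 0.18, adjusted p = 0.0604). For both pocket protein genes the lowest values came from the 2 libraries with low long genes, whose part in the result was not tested. CCND1, at 792, 728 and 689 TPM in parental and 406 to 521 TPM in uninduced cells, did not overlap in TPM either, and its edgeR difference was -0.19 (SE 0.20, adjusted p = 0.543). CDK4 (0.50, SE 0.29), CCND3 (0.55, SE 0.24) and CDKN2C (0.26, SE 0.26) did not pass. On TPM the differences of CDK4 and CDKN2C turned to -0.05 and -0.36, and without replicates 1 and 2 those of CDK4, CCND3 and CDKN2C were -0.27, -0.07 and -0.39. The calls of CDK6 and RBL1 were lost when any 1 parental library was left out, at adjusted p from 0.0877 to 0.101, and when uninduced replicate 2 was left out, at 0.0729 and 0.062.

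**Figure D5:**
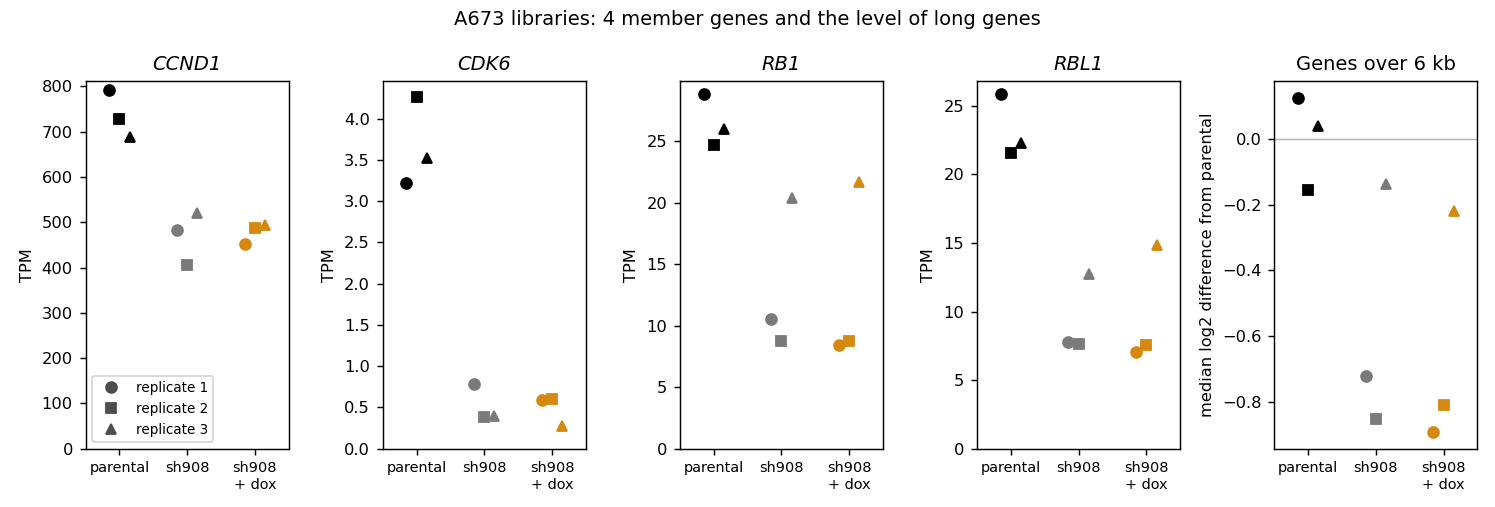
CCND1, CDK6, RB1 and RBL1 in TPM in each A673 library (marker shape gives the replicate number), and at right the median log2 difference of genes over 6 kb from parental cells. In uninduced cells RB1 was at 10.6, 8.75 and 20.4 TPM, RBL1 at 7.77, 7.62 and 12.7 TPM and CDK6 at 0.785, 0.384 and 0.396 TPM in replicates 1 to 3, beside long-gene medians of -0.72, -0.85 and -0.14, whose part in these levels was not tested.

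Of the 31 other network genes 4 passed in this comparison, with a median of -0.30 against 0.01 over all genes, where 15.1% of all genes passed, so the count is not above the background. That count was 0 without any 1 parental library, 2, 1 and 21 without uninduced replicate 1, 2 or 3, 9 by DESeq2 and 19 without uninduced replicates 1 and 2. CDKN1A (1.67, adjusted p = 0.0245), CDKN1C (2.22, adjusted p = 0.00695) and LIN37 (1.09, adjusted p = 0.0219) were higher in uninduced sh908 cells by edgeR, as were 8.71% of genes. Of the neighbours of CDK4, AGAP2 passed (1.54, SE 0.35, adjusted p = 0.0326), at levels under 1 TPM. CDKN1C encodes the CIP/KIP inhibitor p57 and rose from 3.95 ± 0.114 to 13.3 ± 5.91 TPM. CCNE2, cyclin E2, was lower, at 4.33 ± 1.05 against 14.03 ± 1.21 TPM (-1.16, adjusted p = 0.0199).

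Genes whose level over the 13 lines was most like that of a member were ranked by Pearson r of log2(TPM + 1) among 15707 genes, as a description without a test. For CCND1 these were ZNF430 (r = 0.968), SNX5 (0.930) and ZNF738 (0.929). For CDKN2A they were TMEM132B (0.950), LINC00869 (0.892) and the overlapping CDKN2B-AS1 (0.888). For CDK4 they were TSPAN19 (0.962), MEG9 (0.954) and MIR409 (0.953), all highest in G292, where CDK4 was 15.4 times the median of the other lines. For CCND2 they were C1QL4 (0.895), FNTB (0.893) and LRFN1 (0.888), and for RB1 TCEA1 (0.871), KPNA3 (0.864) and BPNT2 (0.845). Among the 10 genes themselves CCND1 had r = -0.80 with CDKN2B and r = -0.68 with CCND3 over 13 lines. Both rest on SAOS2: without it they were -0.25 and -0.18 over 12 lines, while that of CCND1 with CDK6 was -0.61 with it and -0.77 without it.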

How the data were processed

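Poly(A) RNA of 45 libraries was made with a stranded TruSeq kit per the labels' protocols. Reads were handled with fastp 0.19.5 and kallisto 0.46.2 on GRCh38.p14 (hg38) per the submitters' processing notes. The authors deposited estimated counts and TPM per transcript for each library; the strand setting is not given in the sources used here. For this report both were summed to gene symbols through RefSeq (169966 of 177816 transcripts matched; the unmatched ones held 0.915% to 1.60% of counts and were left out). The 10 genes and all lists were chosen with earlier results of these data known. Expected counts were rounded and summed to 13 lines, or kept as 3 against 3 libraries in A673, and tested with edgeR 4.0.16 (TMM, filterByExpr, robust quasi-likelihood), with Benjamini-Hochberg adjustment over all genes tested and a threshold of 0.05. The test was checked on simulated data. The alternatives were DESeq2 1.42.0, other size factors, no filter, limma 3.58.1 on log2(TPM + 1), the line as a random effect, exact permutations, replicates or lines left out, a replicate block and 1 fit of all libraries. Leaving out TC71 replicate 3, G292 with SAOS2, pair 3, or uninduced replicates 1 and 2, and SAOS2 from the correlations, was chosen after seeing the data, as were gaps between lines on TPM. In the sh908 groups deviations of same-numbered libraries correlated at 0.683, 0.582 and 0.881. Uninduced replicate 1 with induced replicate 2 gave 0.608, and uninduced replicate 2 with induced replicate 1 gave 0.517. The numbers thus set replicate 3 apart but did not tell replicates 1 and 2 from each other, and no label states a pairing. Named genes were the 10 members, KCNN1, the markers, the called genes of each list and the 3 genes most like 5 of the members. Neighbours of CDK4, CDKN2A and RB1 were also named for their levels, whether or not they were called. Floors and counts cover counting error only.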

Additional observations from a re-analysis of the deposited data

Results flagged for a closer look

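Among the 20 cases tested, 10 genes in each tumour type, 3 had a line whose gap to the nearest other line was a larger part of the whole range, on the log2(TPM + 1) scale, than Dixon's 95% limit allows, which chance gives in about 1 of 20 cases. CCND1 in SAOS2 averaged 2.576 TPM against 124.9 to 574.8 TPM in the other osteosarcoma lines, a gap of 0.701 of the log2 range. CCND2 in U2OS averaged 56.53 TPM against at most 0.0403 TPM, a gap of 0.991 of the log2 range. CDK4 in G292 averaged 4091 TPM against 185.7 to 268.9 TPM, a gap of 0.881 of the log2 range. On TPM, a scale tried after seeing the data, these gaps were 0.214, 0.999 and 0.979 of the range, so that CCND1 in SAOS2 no longer passed. On TPM 6 cases passed, the further ones being CCND2 in SKES1 (0.755), CCND3 in EW24 (0.569), CDK6 in A673 (0.732) and CDKN2B in SAOS2 (0.864).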

How the results depend on the processing

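In the tumour type comparison CDK6 kept its direction and its call under every alternative run. The count of members called was 3 instead of 2 with DESeq2 (CCND1 added), 3 without G292 and SAOS2 (CDK6, CCND1 and CDKN2A, with CDKN2B no longer called), 1 without a filter, with limma on TPM and without TC71 replicate 3, and 1 to 2 over fits leaving out a line or a replicate number; the count of all genes was 5399 with DESeq2 and 2296 to 3177 over those fits. CCND2 turned to 1.12 with limma and with the exact permutation, 2.77 with a pseudocount of 0.1, 4.98 with the line as a random effect and between -1.30 and 8.96 with a line left out. CDKN2A turned to 1.65 (limma and permutation), 2.82 (pseudocount 0.1), 3.29 (random effect) and 10.70 without G292 and SAOS2, a value fixed by leaving out the 2 osteosarcoma lines that express it, and lay between -1.35 and 0.24 with a line left out. CDKN2C turned to 0.094 (limma and permutation), 0.11 (pseudocount 0.1), 0.05 (random effect) and 0.46 without G292 and SAOS2, and RB1 to 0.069 (limma and permutation), 0.074 (pseudocount 0.1) and 0.012 (random effect). CDK4 lay between -1.72 and 0.39 with a line left out and at 0.40 without G292 and SAOS2.

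With doxycycline the genes called of all tested were 0, but 2 with DESeq2, 80 with the replicate block, 12 in 1 fit of all 45 libraries and 28 with pair 3 left out; members called stayed at 0. The block changed no call of a member. Near-zero differences changed sign: with a library left out CCND1 lay between -0.037 and 0.21, CCND3 between -0.17 and 0.31, CDK4 between -0.21 and 0.31, CDK6 between -0.32 and 0.55, CDKN2C between -0.35 and 0.13, RB1 between -0.34 and 0.18 and RBL1 between -0.25 and 0.085. CDK6 was 0.0013 and RB1 0.0029 with DESeq2 and with RLE size factors, CDK6 0.043 without pair 3, RB1 0.0010 in 1 fit of all libraries, and with limma CCND3 was -0.01 and RBL1 0.026.

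For uninduced sh908 against parental cells members called were 0 with the replicate block, 5 in 1 fit of all libraries, 5 without uninduced replicates 1 and 2 and 0 to 6 with a library left out. Genes called were 4169 with DESeq2, 297 with the block, 7558 in 1 fit, 9588 without uninduced replicates 1 and 2, and 2 to 10201 with a library left out (6 members and 10201 genes without uninduced replicate 3). There the numbers did not pair the libraries, with same-numbered deviations correlated at 0.045, 0.087 and 0.25. With the block 1 of the 31 other network genes passed, CDKN1C, while the adjusted p was 0.051 for CDK6, 0.059 for RBL1, 0.062 for CDKN1A, 0.078 for LIN37, 0.072 for CCNE2 and 0.098 for AGAP2. CDK4 turned to -0.049 and CDKN2C to -0.36 with limma, and without uninduced replicates 1 and 2 CDK4 was -0.27, CDKN2C -0.39 (adjusted p = 0.0387) and CCND3 -0.068. By counts in place of TPM the transcript shares moved to 69.8% for p14ARF in EW24, 60.6% in G292, and 35.3% and 15.5% for p16INK4a in G292 and SAOS2. The causes were not tested. Depth limits genes at a few counts, CDKN2B and CCND2 in most lines among them, and 3 against 3 libraries cannot give an exact p under 0.1.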

Other observations

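CDKN2C is listed as 2 transcripts, of 2076 and 995 bases. The shorter made up 65.1 ± 4.53% of CDKN2C TPM in G292, where the gene was highest, 56.2 ± 3.61% in KHOS and 34.9 ± 3.29% in A673. By estimated counts, which are not corrected for length, its share was 44.7%, 35.8% and 18.7%. These lines were chosen after their values were seen, and no test was made.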
